A study of Mus musculus with 15 samples.

Results

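The genes described here encode the subunits of the receptors for GABA and glutamate. They were chosen by gene symbol: the GABA-A subunit genes (Gabra, Gabrb, Gabrg, Gabrd, Gabre, Gabrp, Gabrq and Gabrr), the GABA-B genes (Gabbr), and the AMPA (Gria), kainate (Grik), delta (Grid), NMDA (Grin) and metabotropic (Grm) glutamate receptor genes. The rule gave 41 genes with an array row of that single symbol, among 22180 genes measured in all: 16 GABA-A, 2 GABA-B, 4 AMPA, 5 kainate, 1 delta, 6 NMDA and 7 metabotropic genes. RNA from whole cerebella of newborn C57BL/6 mice was hybridised to 15 whole-transcript arrays, 1 per library, with 5 libraries in each of 3 labelled groups. The labels give the age as postnatal day 1, and their growth protocol gives day 2. Per the design text, dissociated cells were passed through a density gradient to enrich granule neuron progenitors. In the libraries labelled GSK-3 DKO (DKO), the labels describe glycogen synthase kinase 3 as deleted in cerebellar granule neuron progenitors, both the alpha and the beta isoform.

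The Math1-Cre control is described as Gska+- with GskBff and M1Cre, with Gsk-3 beta alone deleted in the progenitors. The no-Cre control is described as Gska+- and GskBff without Cre, and the description of its replicate 5 leaves out the beta genotype. Both controls thus carry an altered alpha allele, and the labels do not say what that allele is. Math1 is another name of Atoh1, a gene of granule neuron progenitors, so Cre driven from it acts in these cells and their descendants and not in all cells of the cerebellum. The labels number the replicates but name neither litters nor days, and the p-values therefore reflect only how much these libraries vary, which may in part be technical. In bulk RNA, fewer cells of a type and less RNA per cell cannot be told apart.

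GABA-A receptors are chloride channels assembled from several subunits, whose alpha subunit sets much of their pharmacology and location. Ionotropic glutamate receptors of the AMPA, kainate, delta and NMDA families are cation channels or channel-like proteins, and metabotropic glutamate and GABA-B receptors act through G proteins. In the cerebellum, mature granule neurons are known for the GABA-A subunits alpha 6 and delta and for the NMDA subunit GluN2C, all of which appear late as these cells leave the progenitor pool and settle in the inner granular layer.

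The Gsk3a row, which the array shares with the transcript 9130221H12Rik, lay at 7.89 to 8.27 (log2) in DKO 2, 4 and 5 and Math1-Cre 1 and 2, and at 9.37 to 9.51 in DKO 1 and 3 and Math1-Cre 3, 4 and 5. It lay at 9.42 to 9.59 in the no-Cre libraries. With 9.0 as the limit, 4 libraries thus go against their label (the libraries labelled DKO 1 and 3 and Math1-Cre 1 and 2), and each comparison is given over all 15 libraries and over the 11 that remain without them. The set of 11 was chosen with earlier results of these data known. No library was moved to another group. The libraries are also described below as Gsk3a-low (the 5 Cre-labelled libraries below 9.0), Gsk3a-high (the other 5 Cre-labelled libraries) and no-Cre, by ranges only and with no test. The arrays of DKO 3, 4 and 5 and no-Cre 4 stood apart by a narrow spread (interquartile range 4.00 to 4.12, against 4.22 to 4.40 on the other 11) and a high background: the 95th percentile of olfactory and vomeronasal receptor genes, used here as the background limit of an array, was 5.39 to 5.58 on them and 4.65 to 4.95 on the others.

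Of the 41 genes, 27 were above the background limit in all 15 libraries: 8 of 16 GABA-A, both GABA-B, all 4 AMPA, all 5 kainate, the delta, 3 of 6 NMDA and 4 of 7 metabotropic genes. The 7 above it in some libraries were Gabra6 (4 libraries), Gabre (8), Gabrq (10), Grin2a (11), Grin2c (5), Grm4 (8) and Grm8 (14). With the 99th percentile as a stricter limit, Gabra6 was above it in 2 libraries, Math1-Cre 1 and 2, and Grin2c in 0. By the 95th percentile, the 7 above it in none were Gabrd, Gabrp, Gabrr1, Gabrr2, Gabrr3, Grin3b and Grm6. Of the 3 genes known for mature granule neurons, Gabrd thus had no signal above background in any library (3.14 to 3.54). Signals of different genes come from different probes and were not set against each other.

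Gabra6 and Grin2c, both at the edge of background, are the members that passed the test over 11 libraries, and their promoters are shown to give the sequence in front of each. The letters are the 250 bases before the RefSeq start of each gene in build GRCm38.p6, 5' to 3' on the minus strand of chromosome 11, at chr11:42321073-42321322 for Gabra6 and chr11:115267244-115267493 for Grin2c. Capitals mark the letters of a nuclear factor I (NFI) motif.
Gabra6: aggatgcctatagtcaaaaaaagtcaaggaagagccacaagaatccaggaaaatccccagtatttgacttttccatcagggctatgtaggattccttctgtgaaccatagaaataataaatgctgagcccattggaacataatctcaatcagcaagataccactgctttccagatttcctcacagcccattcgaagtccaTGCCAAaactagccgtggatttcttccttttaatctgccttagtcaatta
Grin2c: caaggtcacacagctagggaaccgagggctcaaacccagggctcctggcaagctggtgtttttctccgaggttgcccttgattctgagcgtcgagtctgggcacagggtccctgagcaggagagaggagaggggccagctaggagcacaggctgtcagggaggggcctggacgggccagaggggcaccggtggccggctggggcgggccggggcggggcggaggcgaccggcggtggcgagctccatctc
The NFI letters TTGGCA, searched on both strands, matched the Gabra6 promoter on its reverse strand from -50 to -45 relative to the start. NFI proteins are known regulators of late granule neuron genes. The same letters occurred in 12.3% of 32851 RefSeq promoters of this length. The full NFI palindrome, found in 0.0365% of promoters, was in neither window. No match to TTGGCA, to the TCF/LEF letters CTTTGAT (3.21% of promoters) or CTTTGTT (5.03%), or to the E-box letters CAGCTG (13.0%) or CAGATG (14.4%) was found in the Grin2c window, and none of the TCF/LEF or E-box letters in that of Gabra6. Of the 41 genes, 31 had a promoter in the RefSeq table, and TTGGCA was otherwise found in front of Gabrg3 and Gabrr3. A match is a description of the letters and not a binding site.

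Gabra6 encodes the alpha 6 subunit, a marker of the mature granule neuron. Its log2 value was 3.51, 5.42, 3.86, 6.02 and 4.76 in DKO 1 to 5. It was 5.83, 5.78, 3.72, 3.72 and 3.58 in Math1-Cre 1 to 5 and 3.79, 3.64, 3.50, 3.95 and 3.61 in no-Cre 1 to 5. The high values were those of DKO 2, 4 and 5 and Math1-Cre 1 and 2, the 5 libraries with a low Gsk3a row (4.76 to 6.02). They did not overlap with the 3.51 to 3.86 of the Gsk3a-high or the 3.50 to 3.95 of the no-Cre libraries, while the labelled DKO and Math1-Cre groups overlapped over nearly their whole range. DKO 5, at 4.76, was above every Gsk3a-high and no-Cre library but below the background limit of its own array (5.52), and the other 4 were above their limits. On the 4 arrays of narrow spread, Gabra6 was 6.02 and 4.76 in DKO 4 and 5 and 3.86 and 3.95 in DKO 3 and no-Cre 4.

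Over all 15 libraries the difference of Gabra6 between DKO and no-Cre was 1.01 ± 0.51 (SE, limma adjusted p = 0.313), that between DKO and Math1-Cre 0.19 ± 0.51 (adjusted p = 0.843) and that between Math1-Cre and no-Cre 0.83 ± 0.51 (adjusted p = 1). Over the 11 libraries its mean was 5.40 ± 0.63 (SD, n = 3) in DKO, 3.67 ± 0.08 (n = 3) in Math1-Cre and 3.70 ± 0.17 (n = 5) in no-Cre. Gabra6 was 3.25-fold higher in DKO than in no-Cre (1.70 ± 0.21 SE on the log2 scale, limma adjusted p = 0.00239) and 3.31-fold higher than in Math1-Cre (1.73 ± 0.24, limma adjusted p = 0.00661). Of these 11 libraries, 2 of 3 DKO and no Math1-Cre or no-Cre library were above background, so these folds depend on values within background and no lower bound on them is given. The call against no-Cre held in each of 21 alternatives (adjusted p 0.00015 to 0.019). The call against Math1-Cre ended when only those groups were fitted (difference 1.73, limma adjusted p = 0.0859), with array spread as a covariate (1.61, 0.0744) and with the replicate block (1.70, 0.0513).

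**Figure D1:**
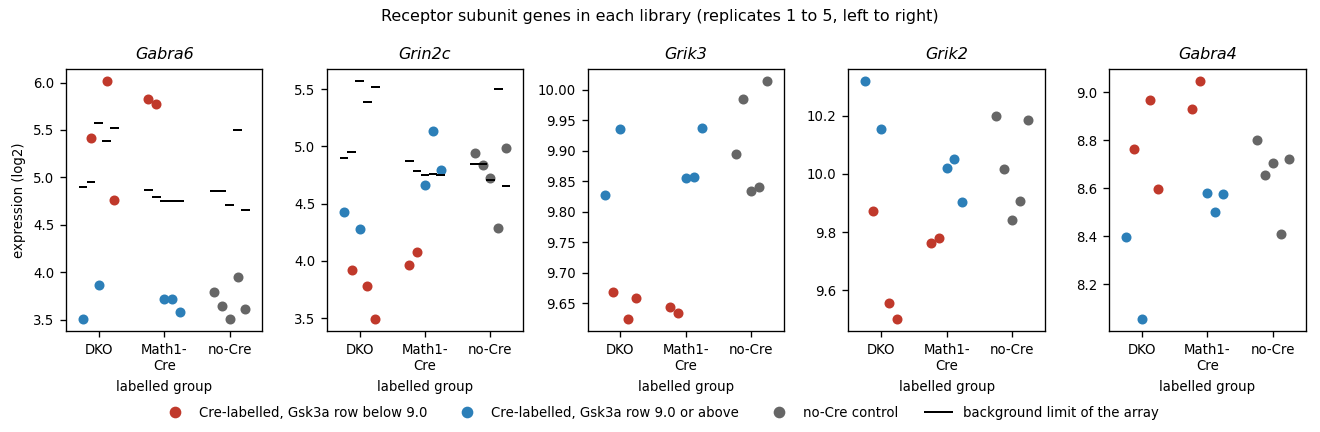
Log2 expression (y axis) of 5 receptor genes in each of 15 libraries, by labelled group (x axis), with replicates 1 to 5 from left to right. Points are libraries, coloured by the Gsk3a row, and black ticks are the background limit of each array for the genes near it. The red Gsk3a-low libraries lie at 4.76 to 6.02 for Gabra6 and at 3.49 to 4.08 for Grin2c, apart from the blue and grey points. The y axes differ between panels and do not start at 0.

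Grin2c encodes GluN2C, the NMDA receptor subunit that mature granule neurons take up in place of GluN2B. Its log2 value was 4.42, 3.92, 4.27, 3.78 and 3.49 in DKO 1 to 5. It was 3.97, 4.08, 4.66, 5.13 and 4.79 in Math1-Cre 1 to 5 and 4.94, 4.84, 4.72, 4.29 and 4.98 in no-Cre 1 to 5. The low values were those of the 5 Gsk3a-low libraries (3.49 to 4.08), which did not overlap with the Gsk3a-high (4.27 to 5.13) or no-Cre libraries (4.29 to 4.98). Within both of these other sets the lowest value was that of an array of narrow spread, 4.27 in DKO 3 and 4.29 in no-Cre 4. Grin2c was thus low in the 5 libraries where Gabra6 was high.

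Over all 15 libraries Grin2c differed by -0.78 ± 0.22 between DKO and no-Cre (limma adjusted p = 0.124) and by -0.55 ± 0.22 between DKO and Math1-Cre (adjusted p = 0.164). Over the 11 libraries its mean was 3.73 ± 0.22 (SD, n = 3) in DKO, 4.86 ± 0.24 (n = 3) in Math1-Cre and 4.75 ± 0.28 (n = 5) in no-Cre. It was lower in DKO by 2.03-fold against no-Cre (-1.02 ± 0.17 SE, limma adjusted p = 0.0123) and by 2.19-fold against Math1-Cre (-1.13 ± 0.19, limma adjusted p = 0.0215). It was above background in 3 of 5 no-Cre, 2 of 3 Math1-Cre and 0 of 3 DKO libraries, and the mean limit of the DKO arrays (5.29) was above both control means, so no lower bound on the fold could be given. The second row of Grin2c lay at 3.08 to 3.36, never above background, and differed by 0.03 and 0.12. The call against no-Cre ended without DKO 4 (limma adjusted p = 0.0633), without DKO 5 (0.0505) and with the replicate block (0.119). That against Math1-Cre ended in 8 alternatives (0.0574 to 0.122), among them leaving out DKO 4, DKO 5, Math1-Cre 4 or Math1-Cre 5 and taking array spread as a covariate.

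The mean log2 level of 7 granule neuron progenitor markers differed between the same sets. It was 6.89 to 7.12 in the Gsk3a-low, 7.56 to 7.89 in the Gsk3a-high and 7.70 to 8.10 in the no-Cre libraries. Over all 15 libraries 1 of the 7, Rgs13, passed limma's test in each DKO comparison, beside 0.0721% of all genes against no-Cre and 0.55% against Math1-Cre. Over the 11 libraries 5 of the 7 were lower in DKO than in no-Cre (Atoh1, Mfap4, Mycn, Nhlh1 and Rgs13, beside 1.08% of all genes called) and 4 lower than in Math1-Cre (beside 0.541%). Of the 7, 6 were above background in all libraries. The 8 markers of differentiating granule neurons had means of 9.33 to 9.48, 9.48 to 9.59 and 9.47 to 9.81 in the 3 sets, with 0 of 8 past the test in either comparison and 2 of 8 at an unadjusted p under 0.05 in each. The part of these cells in the values of Gabra6 and Grin2c was not tested. Of markers of the labelled tissue, all 9 measured Purkinje cell markers and all 8 interneuron markers were above background in every library. Their list means overlapped between the 3 sets (Purkinje 9.75 to 9.92, 9.62 to 9.79 and 9.64 to 9.86). Of the lists for unipolar brush cells, astrocytes, oligodendrocytes, microglia, endothelium and choroid plexus, 0 genes passed limma's test in any comparison over 15 or 11 libraries, with 1, 2, 1, 0, 1 and 1 at an unadjusted p under 0.05 in DKO against no-Cre over 11. Over 11 libraries, 12.7% of all genes had an unadjusted p under 0.05 in DKO against no-Cre and 15.9% in DKO against Math1-Cre.

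The comparison of DKO with no-Cre asks what Cre and the loss of both kinases do together, and that with Math1-Cre what the loss of the alpha isoform adds. Over all 15 libraries 0 of the 41 genes passed limma's test in either, where 0.0721% and 0.55% of all genes passed, with 2 and 3 of the 41 at an unadjusted p under 0.05 (4.88% and 7.32% of the 41, against 17.4% and 23.0% of all genes). Math1-Cre against no-Cre gave 0 of 41, 0.0% of all genes and 1 of the 41 at an unadjusted p under 0.05 (2.44%, against 3.23% of all genes). Over the 11 libraries, DKO against no-Cre gave 2 of 41, Gabra6 and Grin2c, where 1.08% of all genes passed, and 4 at an unadjusted p under 0.05 (9.76% of the 41 and 12.7% of all genes). DKO against Math1-Cre gave the same 2, where 0.541% of all genes passed, and 6 at an unadjusted p under 0.05 (14.6% and 15.9%). These comparisons share the DKO libraries. Math1-Cre against no-Cre gave 0 of 41 (0.0% of all genes), and 0 of the 41 at an unadjusted p under 0.05. The median difference of the 41 genes was -0.03 and -0.07 in the DKO comparisons, beside -0.02 and -0.06 over all genes. Gabra6 and Grin2c are 4.88% of the 41 genes, above the share of all genes called, but the count is small and this difference was not tested.

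**Figure D2:**
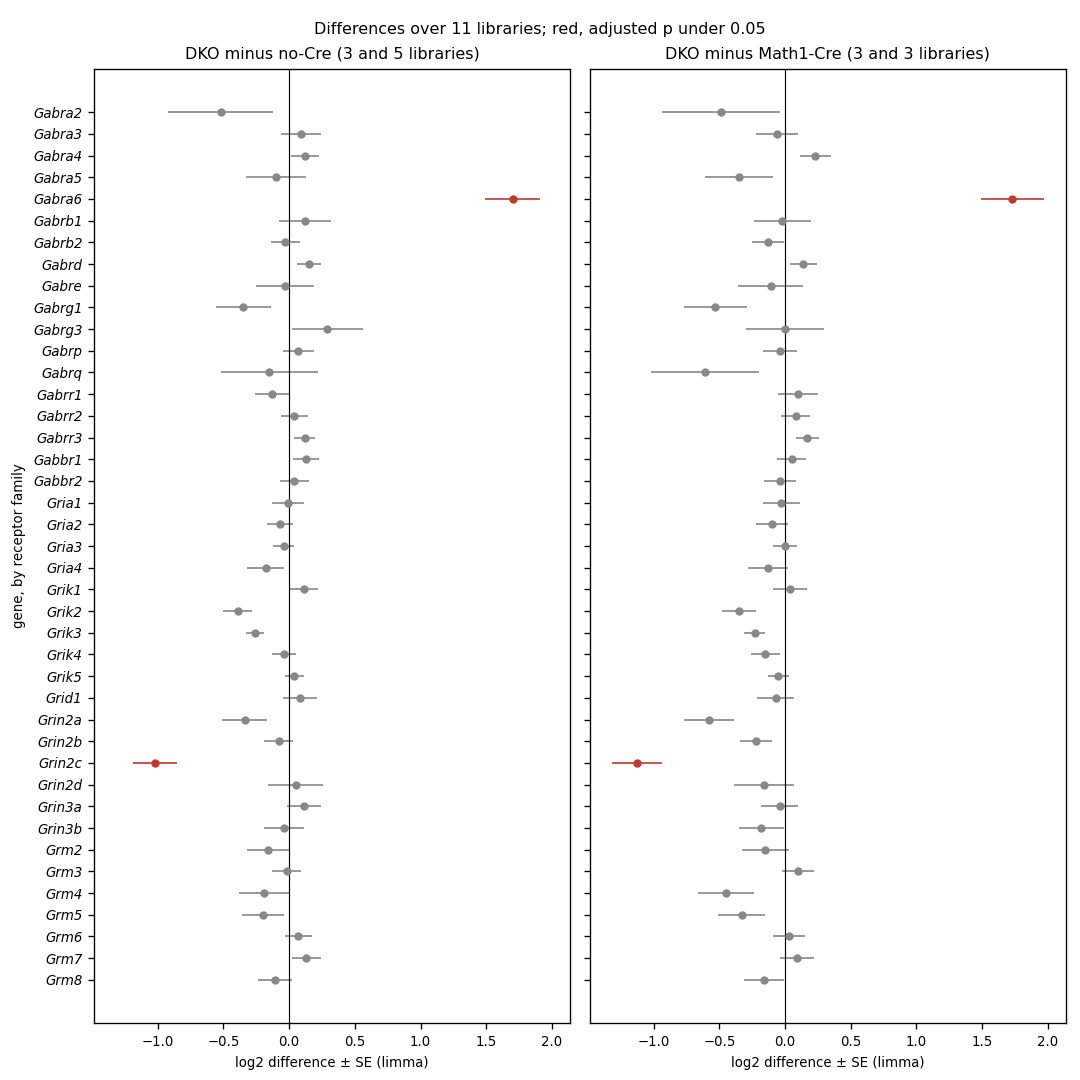
Difference in log2 expression (x axis) of each of the 41 genes (y axis, by receptor family) over 11 libraries, for DKO against no-Cre on the left and DKO against Math1-Cre on the right. Points are limma estimates, bars are 1 SE, and red marks an adjusted p under 0.05. Gabra6 (1.70 and 1.73) and Grin2c (-1.02 and -1.13) are the red points, and the other genes lie between -0.61 and 0.29.

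By the Gsk3a row, 5 of the 41 genes had values that did not overlap between Gsk3a-low and Gsk3a-high libraries, where 2.79% of all genes did so. Gabra6 and Gabra4 were on the higher side in the Gsk3a-low libraries and Grin2c, Grik2 and Grik3 on the lower side. Against the no-Cre libraries 3 did not overlap (Gabra6, Grik3 and Grin2c, with 2.99% of all genes), and these were also apart from all 10 other libraries together (1.51% of all genes). Between Gsk3a-high and no-Cre libraries it was 0 of 41, and 0.41% of all genes.

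Grik2 and Grik3 encode kainate receptor subunits. Grik3 was 9.83, 9.67, 9.94, 9.62 and 9.66 in DKO 1 to 5, 9.64, 9.63, 9.86, 9.86 and 9.94 in Math1-Cre 1 to 5 and 9.89, 9.98, 9.83, 9.84 and 10.02 in no-Cre 1 to 5. The 5 Gsk3a-low libraries lay within 9.62 to 9.67, below all 10 others. The difference over 11 libraries was small and did not pass limma's test (-0.26 ± 0.07 SE against no-Cre, adjusted p = 0.15, and -0.23 ± 0.08 against Math1-Cre, adjusted p = 0.235).

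Grik2 was 10.32, 9.87, 10.16, 9.55 and 9.50 in DKO 1 to 5, 9.76, 9.78, 10.02, 10.05 and 9.90 in Math1-Cre 1 to 5 and 10.20, 10.02, 9.84, 9.91 and 10.19 in no-Cre 1 to 5. The Gsk3a-low libraries (9.50 to 9.87) were below the Gsk3a-high ones (9.90 to 10.32), and met the no-Cre range at no-Cre 3. Its difference did not pass limma's test (-0.39 ± 0.11 SE, adjusted p = 0.165, and -0.35 ± 0.13, adjusted p = 0.24), and after quantile normalization or centring the Gsk3a-low and Gsk3a-high values of Grik2 overlapped. The other kainate genes, Grik1, Grik4 and Grik5, overlapped in all sets, with ranges of 7.89 to 8.28, 8.00 to 8.37 and 9.50 to 9.81. Grik5 lies 4 protein-coding genes from Gsk3a on chromosome 7, and differed by 0.04 ± 0.07 and -0.05 ± 0.08 over the 11 libraries (limma adjusted p = 0.853 and 0.78).

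Gabra4 encodes the alpha 4 subunit, which forms receptors with delta outside synapses. It was 8.39, 8.76, 8.05, 8.97 and 8.60 in DKO 1 to 5, 8.93, 9.05, 8.58, 8.50 and 8.57 in Math1-Cre 1 to 5 and 8.80, 8.65, 8.71, 8.41 and 8.72 in no-Cre 1 to 5. The Gsk3a-low libraries (8.60 to 9.05) lay above the Gsk3a-high (8.05 to 8.58) but overlapped with the no-Cre libraries (8.41 to 8.80). Over 11 libraries the difference was 0.12 ± 0.11 and 0.23 ± 0.12 (limma adjusted p = 0.68 and 0.373).

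The chromosomal neighbours of Gabra6 and Gabra4 overlapped between the sets. Gabra6 lies beside Gabrb2, which encodes a beta subunit, in a cluster on chromosome 11. Gabrb2 was 8.90 to 9.49 in the Gsk3a-low, 9.22 to 9.41 in the Gsk3a-high and 8.92 to 9.23 in the no-Cre libraries, and differed by -0.03 ± 0.11 and -0.13 ± 0.12 over 11 libraries (limma adjusted p = 0.937 and 0.604). Gabra4 lies beside Gabrb1 in a cluster on chromosome 5 with Gabrg1 and Gabra2, and these 3 overlapped between all sets.

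The remaining GABA-A genes overlapped as well. Gabra2 ran from 7.20 in no-Cre 4 to 9.00 in Math1-Cre 3, and its difference had a wide error (-0.52 ± 0.40 against no-Cre, limma adjusted p = 0.613). Gabrg1 differed by -0.35 ± 0.21 and -0.53 ± 0.24 (limma adjusted p = 0.524 and 0.312). The GABA-B genes Gabbr1 and Gabbr2, which form an obligate pair, differed from no-Cre by 0.13 ± 0.10 and 0.04 ± 0.11 (limma adjusted p = 0.599 and 0.906).

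All 4 AMPA receptor genes were above background in every library, and none passed. Gria2, whose product limits calcium entry through AMPA channels, lay at 10.87 to 11.50, Gria1 at 9.10 to 9.80, Gria3 at 8.75 to 9.00 and Gria4 at 9.31 to 9.94. Their differences over 11 libraries ran from -0.18 to -0.01 against no-Cre and from -0.13 to 0.00 against Math1-Cre. Grid1, the delta gene measured, lay at 7.40 to 8.10 and differed by 0.08 ± 0.13 and -0.07 ± 0.14 (limma adjusted p = 0.818 and 0.82).

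Among NMDA genes, Grin2b, whose product prevails in immature neurons, lay at 8.59 to 9.16 and differed by -0.08 ± 0.11 and -0.22 ± 0.12 (limma adjusted p = 0.79 and 0.386). Grin2a, which rises as synapses mature, was near background. It was 5.07, 5.15, 5.20, 5.04 and 4.94 in DKO 1 to 5, 5.36, 5.19, 5.72, 5.78 and 5.37 in Math1-Cre 1 to 5 and 5.30, 5.39, 5.70, 4.87 and 5.64 in no-Cre 1 to 5. All DKO libraries but DKO 3 were below all Math1-Cre libraries, and DKO 3, at 5.20, was above Math1-Cre 2 alone. Grin2a was below the background limit in DKO 3, 4 and 5 and no-Cre 4, the arrays of narrow spread, and above it elsewhere. No Math1-Cre array was among these, so the labels and the array spread cannot be told apart here. The difference over 11 libraries was -0.58 ± 0.19 against Math1-Cre and -0.34 ± 0.17 against no-Cre (limma adjusted p = 0.206 and 0.438). In all, 4 of 6 NMDA genes had differences below 0 against no-Cre and all 6 against Math1-Cre, with Grin2c alone past the test. Of the 41 receptor genes, 23 and 28 had differences that were below 0 after rounding to 2 decimals in these comparisons. Gabrg3 and Gria3 rounded to 0 against Math1-Cre and are not in the 28. The median over all genes was -0.02 and -0.06.

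The metabotropic glutamate genes overlapped between the sets and none passed. Grm3 (10.63 to 11.10), Grm5 (8.69 to 9.72), Grm7 (7.92 to 8.46) and Grm2 (6.88 to 7.80) were above background throughout. Grm4, a presynaptic receptor of granule neuron axons, was 4.18 to 5.09 and above background in 8 libraries. The 7 differences ran from -0.20 to 0.13 against no-Cre and from -0.45 to 0.10 against Math1-Cre (limma adjusted p of at least 0.329).

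**Figure D3:**
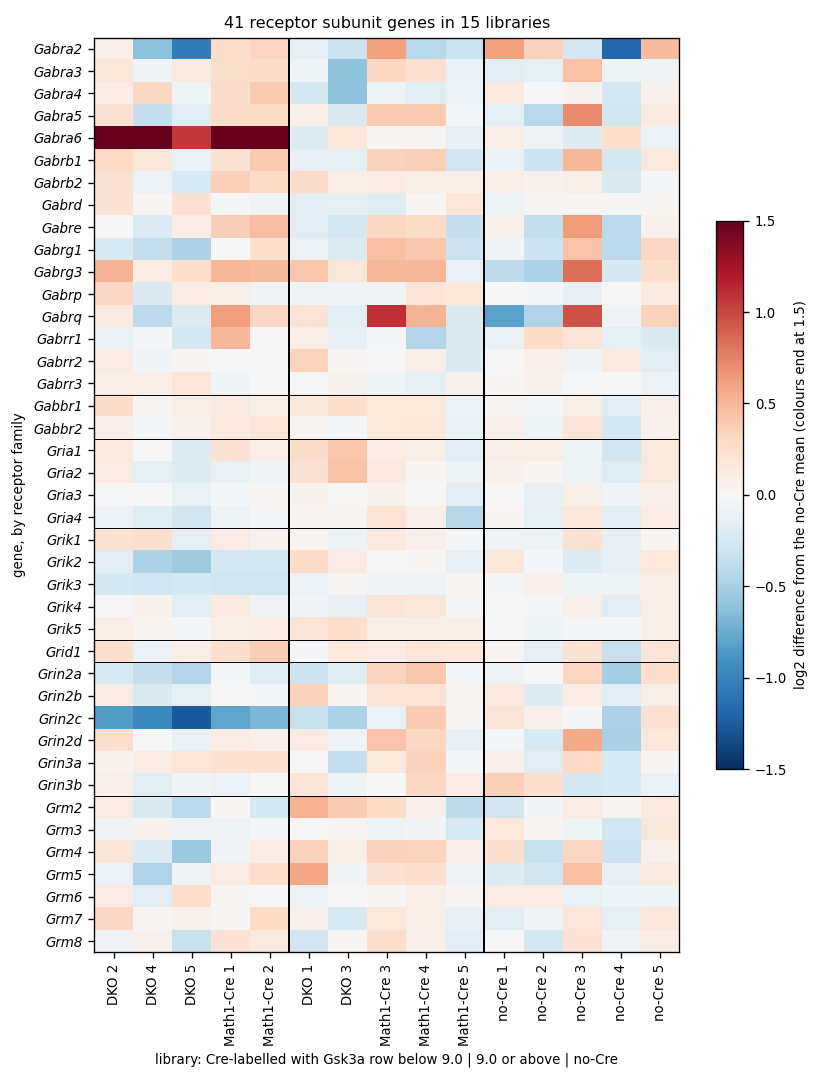
Difference in log2 expression from the no-Cre mean (colour scale, ending at 1.5 on either side) for the 41 genes (rows, by receptor family) in 15 libraries (columns, Gsk3a-low, Gsk3a-high and no-Cre, split by black lines). Gabra6 is red in the 5 Gsk3a-low libraries and Grin2c blue there, while Gabrq, Gabrg3 and Gabra5 vary between libraries inside each set.

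A further pattern crossed the groups. The mean level of 10 measured genes of brainstem neurons (serotonin, noradrenaline and cholinergic neuron genes with Glra1 and Uncx) ran from 4.59 in Math1-Cre 5 to 6.67 in no-Cre 3, with a median of 5.79. Uncx was above background in all 15 libraries, Chat in none, and the others in 1 to 13. This mean was 5.57 to 6.32 in the Gsk3a-low, 4.59 to 6.57 in the Gsk3a-high and 4.84 to 6.67 in the no-Cre libraries. Within it, Glra1 was 6.61 to 7.13, 5.16 to 6.24 and 5.29 to 7.00 in these sets. The serotonin and noradrenaline genes of the list varied most over the 15 libraries. Slc6a4 was 3.42 to 8.56, Dbh 3.71 to 8.09, Tph2 3.13 to 7.37, Slc6a2 4.18 to 7.82 and Th 3.36 to 6.22. Chat (3.03 to 3.45), Uncx (7.66 to 8.22) and Isl1 (4.18 to 5.08) varied least. The relation of receptor genes to the mean of this list was looked at after the values were seen.

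Over the 15 libraries 9 of the 41 genes (22.0%) were positively related to this list at an adjusted permutation p under 0.05, beside 202 of 22170 genes (0.911%), and 0 of the 41 were negatively related, with 8 genes of the whole array. The p-values came from 100000 permutations and were adjusted over all genes. Of the 9, Gabrb1, Gabre, Gabrg3, Gabra3, Gabrq and Gabra5 encode GABA-A subunits, Gabbr2 a GABA-B subunit and Grin2d and Grin3a NMDA subunits. Gabra3, Gabre and Gabrq are known from monoamine neurons of the brainstem. Gabre, Gabra3 and Gabrq lie next to one another on the X chromosome, with 1 protein-coding gene between Gabre and Gabra3, and Gabrg3 and Gabra5 are neighbours on chromosome 7.

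Gabrb1 had a Pearson r of 0.91 (permutation p = 2e-05, adjusted p = 0.0101) and a Spearman rho of 0.89 (permutation p = 7e-05, adjusted p = 0.0187). It was 8.16, 8.59, 8.16, 8.47 and 8.19 in DKO 1 to 5, 8.53, 8.68, 8.64, 8.65 and 8.02 in Math1-Cre 1 to 5 and 8.20, 7.99, 8.79, 8.04 and 8.45 in no-Cre 1 to 5. Its highest library was no-Cre 3 and its lowest no-Cre 2 and Math1-Cre 5. Gabrg3 was 7.31, 7.41, 7.08, 7.01 and 7.16 in DKO, 7.40, 7.38, 7.41, 7.40 and 6.79 in Math1-Cre and 6.53, 6.43, 7.74, 6.67 and 7.16 in no-Cre 1 to 5, with r = 0.85 and rho = 0.83 (permutation p = 7e-05 and 0.00026, adjusted p = 0.0169 and 0.0377). Here no-Cre 3 was again the highest, and no-Cre 1, 2 and 4 and Math1-Cre 5 were the lowest, so that the spread lay inside the labelled groups.

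The others had r of 0.82 to 0.88 and rho of 0.83 to 0.92. From Math1-Cre 5 to no-Cre 3, the libraries with the lowest and highest list mean, Gabrq went from 5.15 to 6.33, Gabre from 4.69 to 5.68, Gabra5 from 9.11 to 9.84 and Gabra3 from 9.46 to 10.01. Grin2d went from 6.80 to 7.49, Gabbr2 from 10.16 to 10.44 and Grin3a from 8.37 to 8.70. Gabre was above background in 8 and Gabrq in 10 libraries. For the 9 genes r was 0.79 to 0.90 within the labelled groups, 0.79 to 0.90 with array spread removed, and 0.81 to 0.91 without Math1-Cre 5 and DKO 3, the 2 libraries farthest from the median of the list. For Gabra6, r was 0.23 (rho 0.01, adjusted permutation p = 0.731 for r and 0.996 for rho), and for Grin2c -0.04 (rho 0.04, adjusted permutation p = 0.969 and 0.966). The Hox list, a second mark of brainstem, had 13 of 14 genes never above background and a mean of 3.28 to 3.96 in all sets. The part of brainstem RNA in these levels was not tested.

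**Figure D4:**
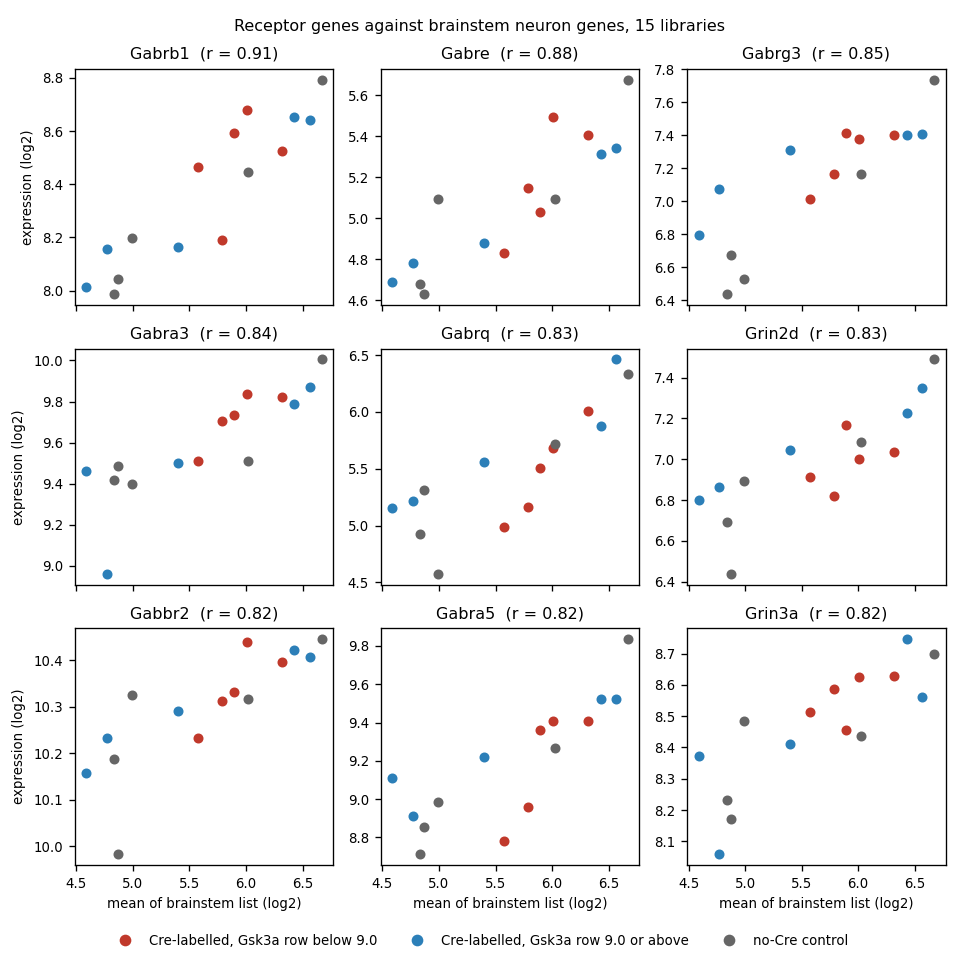
Log2 expression of 9 receptor genes (y axes, which differ between panels) against the mean log2 level of 10 brainstem neuron genes (x axis) in 15 libraries, with r over all 15 above each panel. Points are libraries, coloured by the Gsk3a row. Each gene rises with the list over the 15 libraries (r of 0.82 to 0.91), and the red points cover 5.57 to 6.32 of the list's 4.59 to 6.67.

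Partner genes of the receptors did not pass the test. Of 24 receptor scaffold and trafficking genes, 25 auxiliary subunits and extracellular partners and 16 genes of transmitter synthesis and transport, 0 were called in each comparison over 15 and over 11 libraries. In DKO against no-Cre over 11, 1, 4 and 4 had an unadjusted p under 0.05. Of all genes 12.7% did so there, and 1.08% were called. The median differences of the lists there were 0.00, -0.13 and -0.04, beside -0.02 over all genes. In DKO against Math1-Cre over 11, 1, 6 and 2 had an unadjusted p under 0.05. Of all genes 15.9% did so, and 0.541% were called. In DKO against no-Cre over 11, the single genes were as follows. Cbln4, which encodes a secreted synapse organiser, had the widest difference (1.41 ± 0.45 SE, limma adjusted p = 0.203). Cbln1, another synapse organiser that granule neurons release onto Purkinje cells, lay at -0.35 ± 0.11 (limma adjusted p = 0.195), and Homer2, a scaffold of metabotropic receptors, at -0.41 ± 0.12 (limma adjusted p = 0.181). The chloride exporter gene Slc12a5 lay at 0.00 ± 0.16 (limma adjusted p = 0.998).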

How the data were processed

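The arrays measured 15 libraries, 5 per labelled group. The authors deposited log2 expression values, 1 per row and array, and per the submitters' processing notes used RMA, Partek 6.6 and build mm9. Settings and step order were not given in the sources used here. Of 41345 rows, the 23521 with 1 gene symbol in the platform annotation were kept, 1814 had several and 16010 none. For the 1082 genes with several rows the row with the highest mean stood for the gene, which left 22180 genes. Differences, SE and two-sided p-values came from limma 3.58.1 in R 4.3.3 (a mean per group, eBayes, no covariates, 12 residual degrees of freedom over 15 libraries and 8 over 11), adjusted by Benjamini-Hochberg over all genes with a threshold of 0.05. Background was the 95th percentile of 1394 olfactory and vomeronasal genes on each array. The fits and relations were tested on simulated data. Every member is named; values in every library are given for those past the threshold and those whose Gsk3a-low and Gsk3a-high values do not overlap, and for a few chosen after their values were seen. The members, the lists and the set of 11 libraries were chosen with earlier results of these data known. RefSeq promoters came from GRCm38.p6, and all 41 symbols matched its gene table. Alternatives left out each library in turn or genes under the 30th percentile of mean level, fitted only the groups compared, quantile normalized or centred the arrays, weighted them, moderated with trend and robust settings, took the mean of a gene's rows, or added the replicate block, array spread or a code shared by the replicate 5 libraries as a term. The number of arrays limits the precision. Some genes of these families are not reported here.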

Additional observations from a re-analysis of the deposited data

Results flagged for a closer look

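In 12 of 123 groups of 5 libraries, 1 library stood far from the other 4. For a single group chance gives about 1 in 20. The 123 groups are different genes in the same libraries and are not independent, so the count cannot be set against that rate. Of the 12, 8 were low values of Math1-Cre 5, the library with the lowest mean of the brainstem neuron genes (4.59). They were Gabbr1 (10.57, the others 10.75 to 10.82), Gabbr2 (10.16, the others 10.40 to 10.44), Gabra3 (9.46, the others 9.79 to 9.87), Gabra5 (9.11, the others 9.41 to 9.52), Gabrb1 (8.02, the others 8.53 to 8.68), Gabre (4.69, the others 5.31 to 5.49), Gabrg3 (6.79, the others 7.38 to 7.41) and Grm3 (10.70, the others 10.85 to 10.91). Among these 8, Gabbr1 and Grm3 did not pass as related to the brainstem list (r = 0.49 and 0.10, adjusted permutation p = 0.432 and 0.898). Gabra3 was high in no-Cre 3 (10.01, the others 9.40 to 9.51), the library with the highest brainstem mean. Grik5 was at 9.67 in Math1-Cre 2 where the others lay at 9.65. Gabrd in no-Cre 1 (3.25, the others at 3.34) and Grm6 in Math1-Cre 4 (3.51, the others 3.42 to 3.44) lay within background.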

How the results depend on the processing

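Over 15 libraries the count of receptor genes past the threshold for DKO against no-Cre was 0 to 2 when each library was left out (2 without no-Cre 4, Grin2a and Grin2c), and 2 without the 4 libraries against their label. For DKO against Math1-Cre it was 0 whichever library was left out and 2 without those 4. Over 11 libraries, DKO against no-Cre gave 2, with 5 under array weights and 1 to 3 leaving out each library (1 without DKO 4 or DKO 5, 3 without no-Cre 4). DKO against Math1-Cre gave 2, with 4 under array weights, 1 with the mean of a gene's rows, 0 with array spread as a covariate, 0 with only the groups compared, and 1 to 2 leaving out each library. Math1-Cre against no-Cre gave 0 in each alternative. The causes were not tested. Beyond the main fits over 15 and 11 libraries, the share of all genes called is not given. The changes in count may thus not be particular to receptor genes. The difference of Gabra6 between DKO and Math1-Cre over 15 libraries (0.19) changed sign under array weights (-0.01), with array spread (-0.04), and without DKO 4 (-0.14), Math1-Cre 3 (-0.01), Math1-Cre 4 (-0.01) or Math1-Cre 5 (-0.05), and leaving out each library gave -0.14 to 0.51. Between Gsk3a-high and no-Cre libraries, 1 gene (Gabra4) did not overlap after quantile normalization (0.564% of all genes) and 1 after centring (0.505%). Between Gsk3a-low and no-Cre libraries, Gabbr1 was higher without overlap under both scalings, where 3.71% and 3.75% of all genes were apart. The deviations of 15 same-numbered pairs from their labelled group means correlated by -0.33 to 0.42, 4 of them over 0.1. Of the libraries, 4 correlated best with their own number. The DKO and Math1-Cre groups mix Gsk3a-low and Gsk3a-high libraries, and this can enter the deviations. They therefore cannot decide whether the replicate numbers pair the libraries. With the replicate block the counts over 11 libraries were 1 for DKO against no-Cre and 0 for DKO against Math1-Cre. Signal near background limits Gabra6 and Grin2c, whose folds can understate a change. Differences in array spread can also enter these folds, and DKO 4 and 5 are arrays of narrow spread. With array spread as a covariate over 11 libraries, Grin2c went from -1.02 to -0.79 against no-Cre and from -1.13 to -0.81 against Math1-Cre. Gabra6 went from 1.70 to 1.61 and from 1.73 to 1.61.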
